A study of Mus musculus with 15 samples.

Results

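This account describes what 6 weeks of SR9009, which activates the REV-ERB nuclear receptors (alpha and beta), changed in the livers of mice on a fibrosis-inducing diet. It sets the 5 count libraries labelled SR9009 against the 5 labelled Vehicle, 10 of the 15 samples described in the series, and covers every expressed gene. All mice were male C57BL/6J, a common inbred strain, 8 weeks old at the start, and no group carried an engineered allele. Vehicle and SR9009 mice both ate CDA-HFD, a high-fat diet that lacks choline and has adapted amino acids, for 18 weeks in all. After 12 weeks they were randomised to daily intraperitoneal SR9009 at 100 mg/kg/day or to its vehicle, 15% Kolliphor ELP in NaCl, with 15 mice in each arm. Chow mice ate a standard diet for the same time. Their 4 libraries enter the model, where they share the estimate of the spread and bear on which genes are tested (17410 with the diet-fed libraries alone, where 23 genes rose and 20 fell), and their levels stand beside some genes below. The labels state neither the hour of collection nor the time since the last injection.

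REV-ERB proteins repress transcription from a short DNA element called the RORE, where they compete with the ROR activators. Among the genes under this control are the clock activators BMAL1 (listed here by its older symbol Arntl) and NPAS2, which in turn switch on E-box genes such as the period genes and Dbp. In liver this loop times lipid, bile acid and drug metabolism over the day, the last partly through the PAR bZIP factors DBP, TEF and HLF, which bind D-box elements. Much of the inducible drug metabolism of hepatocytes is controlled by other nuclear receptors, above all CAR (Nr1i3) and PXR (Nr1i2).

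Libraries held between 29950509 and 45542335 counts, and 18181 of 57132 gene identifiers were expressed highly enough to be tested. Values below are CPM, counts scaled to the TMM-adjusted library total. Livers of a group, below, are its libraries and n counts libraries, because the labels do not say whether each is a separate mouse. The hepatocyte markers matched the labelled tissue: Alb (serum albumin) averaged 58989 ± 3690 CPM in Vehicle livers and 51297 ± 5485 CPM in SR9009 livers (SD, n = 5 each), and Hnf4a, a hepatocyte transcription factor, at 489 ± 62.7 and 457 ± 33.5 CPM. Only 4 of 19 pancreas, fat and muscle genes passed the filter. The largest axis among the 10 diet-fed libraries, with 32.8% of their variance, did not follow treatment. It set Vehicle replicates 4 and 5 and SR9009 replicates 1 and 3, where 63 to 82 of 1985 receptor genes for odours, pheromones and trace amines had a count, apart from the other 6, where 158 to 243 had one. On axis 2 (14.5%) SR9009 libraries were at 0.03 to 30.64 and Vehicle libraries at -53 to 0.46. On axis 3 (11.8%) SR9009 libraries were at -24.98 to -6.73, and Vehicle libraries at 9.44 to 31.21 except replicate 2, at -27.56. All of these are tissue RNA values, so fewer cells of a type and less RNA per cell cannot be told apart.

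The changes were few, and most of the rises were in genes that handle foreign compounds. By the edgeR quasi-likelihood test with Benjamini-Hochberg adjustment, 30 of the 18181 genes (0.165%) rose and 14 (0.077%) fell at an adjusted p below 0.05. Of the 30 genes that rose, 21 encode cytochromes P450, their redox partners, glutathione transferases, esterases, an epoxide hydrolase or an aldo-keto reductase of the lists used here, and 3 belong to the clock. Of the 14 that fell, 2 were clock activators. In all 44, the SR9009 libraries did not overlap the Vehicle libraries, against 162 genes (0.891%) higher and 178 (0.979%) lower without overlap among all tested. The 44 were chosen by p on these same libraries, a choice that favours such separation, so it adds no separate support. At an unadjusted p below 0.05 there were 711 genes (3.91%) higher and 612 (3.37%) lower. The median log2 fold change of all tested genes was 0.0011, and 9134 of the 18181 lay above 0. For 10296 genes (56.6%) the 95% interval lay within 1.5-fold of no change. For 13976 genes (76.9%) it lay within 2-fold. The plot of all tested genes shows how far the P450 genes stand from the rest.

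**Figure D1:**
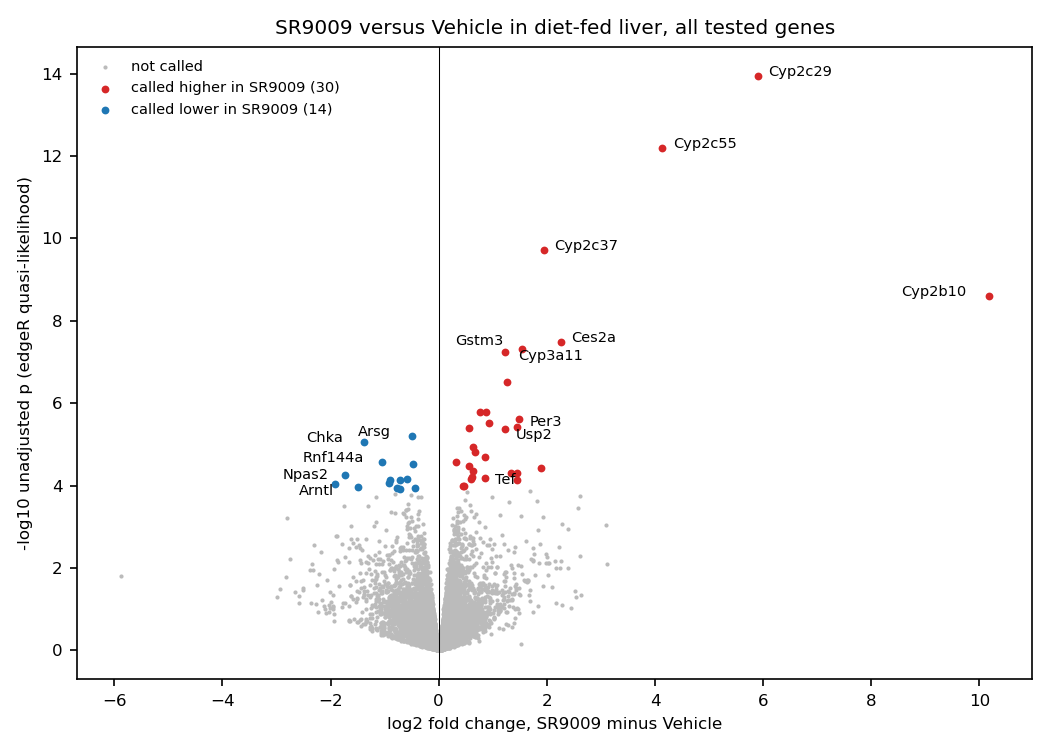
Log2 fold change (x axis, SR9009 minus Vehicle) against -log10 of the unadjusted edgeR p (y axis) for all 18181 tested genes, 1 point each. Red points are the 30 genes called higher and blue points the 14 called lower. Cyp2c29, Cyp2c55 and Cyp2b10 lie far from the other genes, while most genes crowd around 0.

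The number of calls depended on single libraries, the falls more than the rises. Without SR9009 replicate 1, 4 or 5, 18, 16 and 17 of the 30 rises and 2 of the 14 falls in each fit kept their call. Without Vehicle replicate 3 those numbers were 18 and 3. The falls that kept their call were 3 without Vehicle replicate 1, 3 without Vehicle replicate 4, 3 without SR9009 replicate 3, 8 without SR9009 replicate 2, 8 without Vehicle replicate 5, 7 without Chow replicate 2 and 8 without Chow replicate 3. Without Vehicle replicate 2, 7 kept theirs. Calls held in all 14 such fits for 18 genes: Cyp2c29, Cyp2c55, Cyp2c37, Cyp2b10, Cyp3a11, Cyp2a5, Ces2a, Ephx1, Gstm1, Gstm2, Gstm3, Gstt3, Per3, Usp2, Chka, Arsg, Rab3d and 4931406C07Rik. DESeq2, on the same counts, called 122 genes higher and 84 lower, all 44 among them.

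Of 8 clock activators and RORE genes, the class that REV-ERB represses, 2 fell. Npas2, a partner of BMAL1, was at 5.68, 6.14, 7.95, 8.83 and 5.68 CPM in Vehicle replicates 1 to 5 and at 1.02, 3.36, 1.25, 2.92 and 1.82 CPM in SR9009 replicates 1 to 5. It fell by 1.72 on the log2 scale (SE 0.31, edgeR adjusted p = 0.0341). Arntl, which encodes BMAL1, was at 19.4, 22.3, 25.4, 27.9 and 20.3 CPM in Vehicle and at 5.49, 14.1, 5.85, 10.7 and 4.67 CPM in SR9009. Its ratio to Vehicle was 0.353 (0.233 to 0.537, edgeR adjusted p = 0.0482). For both genes the groups did not overlap, and within SR9009 replicates 2 and 4 were the highest. Both calls rested on which libraries were fitted: Npas2 kept its call in 7 of the 14 fits without 1 library (with each Chow library left out in turn, and with Vehicle replicate 2, Vehicle replicate 5 or SR9009 replicate 2 left out), and Arntl in 3, with Chow replicate 1, Chow replicate 4 or SR9009 replicate 2 left out. Over the 14 fits the log2 fold change ran from -1.96 to -1.55 for Npas2 and from -1.79 to -1.35 for Arntl. The edgeR adjusted p reached 0.119 and 0.129. With the diet-fed libraries alone Arntl was not called (adjusted p = 0.0717) and Npas2 was (adjusted p = 0.0372).

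The other 6 genes of that list were not called by edgeR, though 4 had an unadjusted p below 0.05 on the lower side. Nfil3, the repressor that opposes the PAR bZIP factors, was at 22.2, 27.7, 29.0, 29.1 and 21.8 CPM in Vehicle and 7.72, 17.6, 13.4, 14.2 and 12.2 CPM in SR9009 (ratio 0.501, 95% interval 0.332 to 0.755, edgeR adjusted p = 0.245); DESeq2 called it lower (adjusted p = 0.0159), as did edgeR on the diet-fed libraries alone. Cry1, a cryptochrome repressor with a known RORE, ranged over 6.78 to 11.5 CPM in Vehicle and over 4.99 to 6.53 CPM in SR9009 (ratio 0.659, 0.498 to 0.873). Neither gene overlapped between groups. Clock had a ratio of 0.866 (0.776 to 0.966) and Rora, an activator at the same element, 0.843 (0.736 to 0.966). Arntl2, a BMAL1 relative that liver expresses weakly, was at 2.16 CPM in both groups. Over the 8 genes the median log2 fold change was -0.42, with 2 called lower and 0 higher.

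On the other arm of the loop, 1 of 13 period and E-box genes and 2 of 11 PAR bZIP and output genes rose. Per3, a period gene, was at 9.51, 9.46, 6.87, 7.75 and 9.91 CPM in Vehicle and 31.4, 18.7, 26.1, 22.4 and 23.1 CPM in SR9009, a rise of 1.48 ± 0.20 (log2, SE; edgeR adjusted p = 0.00406). Usp2, a ubiquitin-specific protease with strong daily rhythm, was at 4.84, 4.82, 4.37, 3.18 and 4.01 CPM in Vehicle and 13.6, 7.45, 9.20, 9.35 and 10.2 CPM in SR9009, a rise of 1.23 ± 0.18 (edgeR adjusted p = 0.00508). Tef was at 67.8, 58.7, 44.4, 62.6 and 73.7 CPM in Vehicle and 124, 87.6, 135, 106 and 104 CPM in SR9009, a rise of 0.86 ± 0.16 (edgeR adjusted p = 0.0373). None of the 3 overlapped between groups, and SR9009 replicate 2 was the lowest treated library for each. Tef kept its call in 4 of the 14 fits, with Chow replicate 1, Chow replicate 2, Vehicle replicate 5 or SR9009 replicate 2 left out.

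Dbp and Ciart sat just outside the threshold. Dbp was at 22.9, 17.2, 8.16, 12.5 and 23.5 CPM in Vehicle and 50.2, 36.6, 72.7, 57.2 and 55.3 CPM in SR9009 (ratio 3.23, 2.01 to 5.20, edgeR adjusted p = 0.0537), with no overlap. Ciart, a repressor of the CLOCK and BMAL1 pair, ranged over 0.352 to 1.13 CPM in Vehicle and over 1.30 to 5.51 CPM in SR9009 (ratio 3.53, 2.00 to 6.204, adjusted p = 0.0791). The kinase gene Wee1 had a ratio of 1.58 (1.26 to 1.98, adjusted p = 0.127) and Hlf 1.43 (1.17 to 1.75, adjusted p = 0.223). Per2 was at 11.9, 9.04, 6.27, 16.4 and 13.6 CPM in Vehicle and 40.8, 11.7, 25.3, 19.3 and 22.4 CPM in SR9009 and overlapped through SR9009 replicate 2 (adjusted p = 0.319). None of either list fell, and the list medians were 0.29 and 0.33. DESeq2 called 3 and 6 genes higher in them, Ciart, Per2, Dbp, Wee1, Nampt and Hlf being the additions.

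The receptors that SR9009 binds were not called. Nr1d1 was at 72.7, 91.4, 58.2, 82.6 and 94.2 CPM in Vehicle and 77.5, 83.2, 113, 116 and 97.4 CPM in SR9009 (ratio 1.22, 0.982 to 1.52). Nr1d2 was at 64.5, 88.5, 59.2, 66.0 and 83.1 CPM against 100.1, 83.6, 114, 101 and 78.0 CPM (ratio 1.32, 1.08 to 1.604). Both overlapped between groups. The size of the clock response differed between the treated libraries: taken over the 5 called clock genes, the median distance from the Vehicle mean was 0.81 on the log2 scale in SR9009 replicate 2 and 1.14 to 1.85 in the other 4, and replicate 2 was the nearest to Vehicle for each of the 5. For the 21 called drug metabolism genes replicate 2 was nearest for 8 and replicate 1 for 11, with medians of 1.10 and 1.12 against 1.28 to 1.34 in the other 3. Sampling hour and time since injection were not tested.

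**Figure D2:**
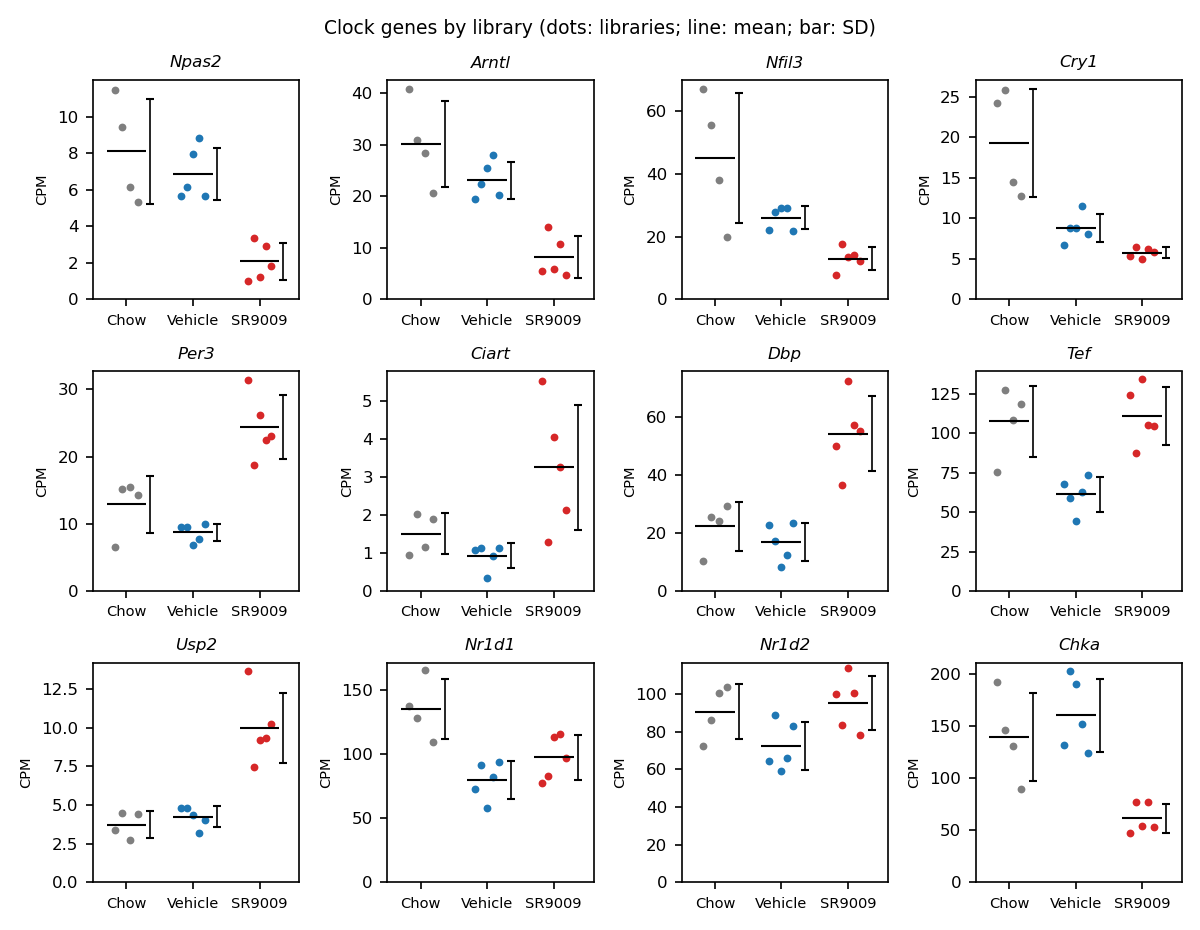
CPM (y axis, linear from 0) of 11 clock genes and Chka in each of the 4 Chow, 5 Vehicle and 5 SR9009 libraries; dots are libraries, lines are means and bars are SD. Npas2, Arntl, Nfil3, Cry1 and Chka lie lower in SR9009 than in Vehicle without overlap, Per3, Ciart, Dbp, Tef and Usp2 lie higher without overlap, and Nr1d1 and Nr1d2 overlap.

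Promoter windows of some of these genes hold the elements the loop is built on. RefSeq windows on GRCm38.p6, 250 bases before and 50 bases from each start, were available for 39 of the 44 called genes, of which 8 held any of the motifs searched. The windows of Npas2, Clock, Cry2, Usp2, Dbp, Hlf, Nr1d1 and Nr1d2 held none. They were searched on both strands for the RORE core (TAGGTCA or TGGGTCA), the E-box CACGTG and the D-box (TTATGTAA or TTACGTAA); none of these motifs contains another. The stretches below carry the matches, in capitals, for 5 of the clock genes that hold one and for the 2 other genes that fell and hold a RORE core. Cry1 and Per1 also hold an E-box and are not printed. Of the genes that rose, Cyp3a11 holds a RORE core, Slc13a3 an E-box, and 4931406C07Rik an E-box and a D-box. Their stretches are not printed either. Where capitals read TGACCTA or TGACCCA, the core is on the opposite strand.
Arntl, chr7:113207530-113207559, + strand: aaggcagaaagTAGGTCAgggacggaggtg
Nfil3, chr13:52981040-52981066, - strand: cgcggcgctcggaacTGACCTActaac
Arsg, chr11:109543614-109543650, + strand: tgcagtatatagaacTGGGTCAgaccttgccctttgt
Slc25a22, chr7:141434801-141434837, - strand: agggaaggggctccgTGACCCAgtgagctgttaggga
Per3, chr4:151044801-151044885, - strand: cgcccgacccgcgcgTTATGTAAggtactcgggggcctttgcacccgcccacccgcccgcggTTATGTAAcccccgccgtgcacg
Tef, chr15:81802531-81802566, + strand: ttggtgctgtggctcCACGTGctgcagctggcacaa
Tef, second start, chr15:81811261-81811296, + strand: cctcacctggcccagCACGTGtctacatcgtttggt
Ciart, chr3:95882252-95882359, - strand: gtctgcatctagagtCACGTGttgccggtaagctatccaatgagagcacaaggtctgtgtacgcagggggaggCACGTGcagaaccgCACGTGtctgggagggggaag

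The RORE core was found in 3 of the 16 windows of genes that fell (18.8%), those of Arntl, Arsg and Slc25a22. It was in 1 of the 34 windows of genes that rose (2.94%), that of Cyp3a11. It was also in 832 of 15637 windows of tested genes (5.32%) and in 2120 of all 32851 windows (6.45%). An E-box was in 4 of the 34 windows of genes that rose (11.8%), 0 of the 16 of genes that fell, 9.10% of windows of tested genes and 7.15% of all windows. A D-box was in 2 of the 34 (5.88%), 0 of the 16, 0.806% and 1.06%. These matches describe letters in short windows and show neither binding nor control.

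The strongest responses were in P450 enzymes of the Cyp2b, Cyp2c and Cyp3a families. Some of their members are known targets of CAR and PXR, the receptors through which many drugs raise their own clearance. Of 19 genes of these families tested, 7 rose, 0 were called lower and 16 lay above 0. The median log2 fold change was 0.86, and the lowest was that of Cyp2c69, -2.03, not called. The summed level of the 19 was 3218 to 4558 CPM across Vehicle livers and 12187 to 16120 CPM across SR9009 livers. Cyp2b10, the classic CAR target, was at 0, 1.20, 0.104, 0.223 and 0.406 CPM in Vehicle and 304, 487, 456, 544 and 396 CPM in SR9009. All SR9009 libraries stood far above all Vehicle libraries, and above Chow, at 3.35 ± 1.91 CPM (SD, n = 4). With Vehicle so near 0 its log2 fold change, 10.17 ± 0.69 (SE), is loosely fixed (95% interval of the ratio 407 to 3257).

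Several members of the Cyp2c cluster rose, the family that hydroxylates steroids, arachidonic acid and many drugs. Cyp2c29 was at 59.8, 94.1, 70.2, 117 and 64.8 CPM in Vehicle and 3990, 4925, 5152, 5454 and 4776 CPM in SR9009, with Chow at 1564 ± 317 CPM. Cyp2c55 was at 2.90, 5.55, 3.46, 4.76 and 5.25 CPM against 63.9, 81.1, 82.0, 91.6 and 66.5 CPM, 17.6-fold higher (13.3 to 23.1). Cyp2c37 was at 94.3, 78.2, 121, 117 and 70.0 CPM against 327, 389, 381, 406 and 339 CPM, 3.83-fold higher (3.14 to 4.69). None of these groups overlapped. Cyp2c50 was at 453, 108, 485, 619 and 482 CPM in Vehicle and 1415, 1426, 1893, 1598 and 1631 CPM in SR9009, 3.71-fold higher (2.31 to 5.96, adjusted p = 0.0271). Vehicle replicate 2 was the low library there, and the call was lost without Vehicle replicate 1, 3 or 5 or SR9009 replicate 1, 3, 4 or 5 (adjusted p up to 0.0808).

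In the Cyp3a family, the main route for oxidising drugs and steroids in liver, 2 genes rose. Cyp3a11 was at 1939, 2058, 2834, 2372 and 2082 CPM in Vehicle and 4595, 5037, 6287, 5533 and 5063 CPM in SR9009, 2.35-fold higher (1.94 to 2.84, edgeR adjusted p = 0.000145). Its lowest treated library lay above its highest Vehicle library by a wide margin. Cyp3a59 rose 1.82-fold (1.47 to 2.24), from 14.4 ± 2.39 to 26.2 ± 3.32 CPM, a call lost without Vehicle replicate 4 or SR9009 replicate 4 (adjusted p up to 0.0598). Cyp3a25 had a ratio of 1.504 (1.25 to 1.81, adjusted p = 0.0918). The Cyp2b, Cyp2c and Cyp3a genes have close relatives in tandem clusters, and the sources used here do not say how shared reads were counted, so the split between neighbours is uncertain.

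Other P450 enzymes and their partners followed in 4 of 22 genes, with 0 lower and a median of 0.21. Cyp2a5, the mouse coumarin hydroxylase, was at 275, 467, 274, 442 and 527 CPM in Vehicle and 1350, 799.7, 1241, 1041 and 960.0 CPM in SR9009, 2.72-fold higher (2.01 to 3.67). Cyp1a2, a pericentral P450 that oxidises caffeine and aromatic amines, was at 462, 150, 460, 598 and 574 CPM against 1031, 1296, 1311, 1339 and 1159 CPM, 2.73-fold higher (1.85 to 4.05, adjusted p = 0.0373). Its call held in only 2 of the 14 fits without 1 library, those without Vehicle replicate 2 or 5. Por, the reductase that hands electrons to all microsomal P450 enzymes, was at 169, 182, 169, 127 and 146 CPM against 228, 253, 265, 258 and 255 CPM, 1.59-fold higher (1.35 to 1.86). That call was lost without SR9009 replicate 4 or 5 (adjusted p up to 0.0531). Cyb5a, cytochrome b5, another electron donor, rose 1.51-fold (1.28 to 1.77, adjusted p = 0.0373), from 433 to 631 CPM over the Vehicle libraries to 755 to 946 CPM over the SR9009 libraries. It kept its call only with Vehicle replicate 2 or 5, Chow replicate 1 or 4 or SR9009 replicate 2 left out. Cyp1a1, the aryl hydrocarbon receptor target, was not called (ratio 1.81, 1.08 to 3.01), nor was Cyp2e1 (1.13, 0.853 to 1.51) or the haem synthesis gene Alas1 (1.44, 0.691 to 2.99).

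**Figure D3:**
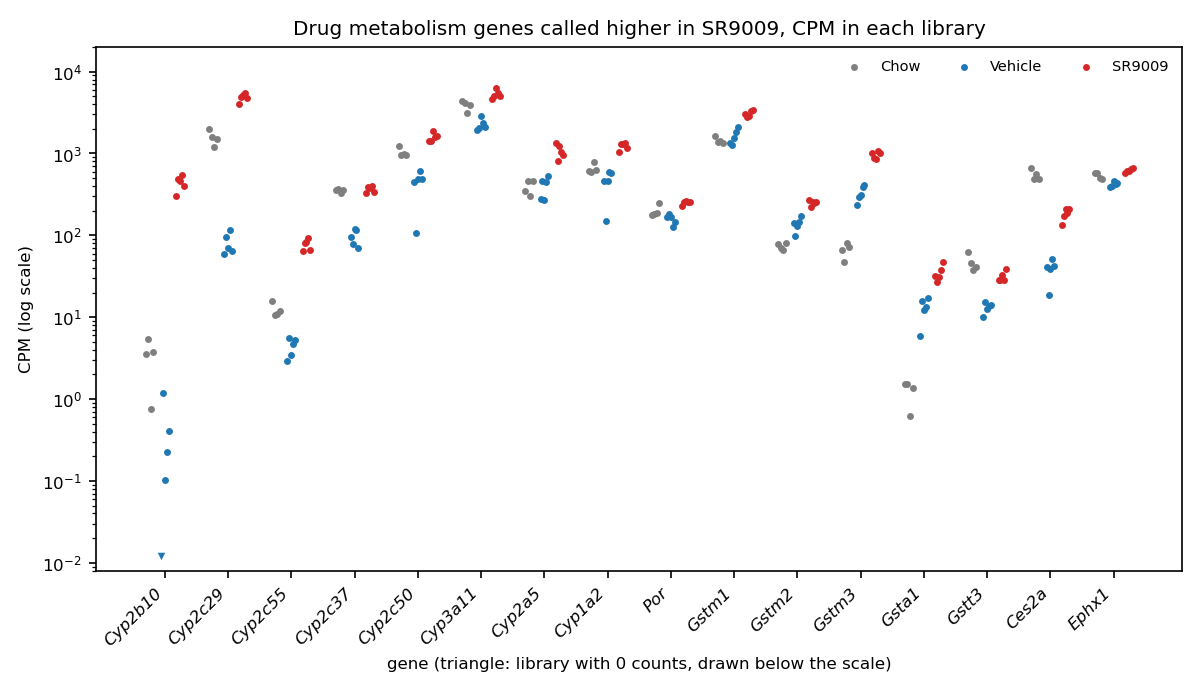
CPM on a log axis for 16 drug metabolism genes called higher in SR9009, 1 dot per library for Chow (4), Vehicle (5) and SR9009 (5); the triangle marks the Vehicle library with 0 counts of Cyp2b10. Every SR9009 dot lies above every Vehicle dot of its gene, by the widest margin for Cyp2b10, Cyp2c29 and Cyp2c55.

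Glutathione conjugation gave as many calls as the Cyp2b, Cyp2c and Cyp3a families. Of 23 glutathione transferases tested, 7 rose and 0 fell, 22 had a log2 fold change above 0 and the median was 0.35. Of the mu class, Gstm3 was at 235, 293, 315, 390 and 417 CPM in Vehicle and 1001, 874, 848, 1081 and 1010 CPM in SR9009, 2.92-fold higher (2.31 to 3.69, edgeR adjusted p = 0.000145). Gstm1 was at 1338, 1284, 1549, 1833 and 2112 CPM against 3030, 2787, 2843, 3330 and 3397 CPM, 1.90-fold higher (1.56 to 2.30). Gstm2 was at 141, 99.0, 131, 144 and 171 CPM against 272, 219.5, 255, 248.7 and 256 CPM, 1.82-fold higher (1.53 to 2.17). In each case the groups did not overlap and Vehicle replicates 4 and 5 were the highest of the controls. Gstm4 rose 1.55-fold (1.31 to 1.83).

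The other classes moved in part. Gstt3, of the theta class, was at 10.1, 15.2, 12.5, 13.8 and 14.1 CPM in Vehicle and 28.4, 28.1, 33.2, 28.7 and 39.3 CPM in SR9009, 2.40-fold higher (1.93 to 2.99, edgeR adjusted p = 0.000678). Gsta1, of the alpha class, was at 5.82, 15.7, 12.2, 13.3 and 17.1 CPM against 31.5, 26.8, 30.9, 37.9 and 47.4 CPM, 2.72-fold higher (1.87 to 3.97), and Gsta4, which conjugates lipid peroxidation products, rose 1.38-fold (1.21 to 1.57). Gsta1 has a near-identical neighbour, so its own value is uncertain. The predicted gene Gm3776, near it on chromosome 9 with an almost identical promoter window, was also called higher. Whether their reads are shared was not tested. Gstp1 (ratio 1.29, 1.06 to 1.57) and Gstt1 (1.27, 1.03 to 1.55) were not called. Gstm4, Gsta1 and Gsta4 lost their call in 8, 8 and 12 of the 14 fits without 1 library. All 3 lost it without Vehicle replicate 3 or 4, Chow replicate 2 or SR9009 replicate 1, 3, 4 or 5. Gstm4 also lost it without Vehicle replicate 1, Gsta1 without Chow replicate 4, and Gsta4 without Vehicle replicate 1 or 5, Chow replicate 3 or 4 or SR9009 replicate 2.

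Hydrolases and reductases added 3 genes. Ces2a, a carboxylesterase that cleaves ester drugs, was at 41.3, 18.6, 38.7, 51.4 and 41.9 CPM in Vehicle and 135, 173, 210.3, 190.0 and 212 CPM in SR9009, 4.79-fold higher (3.48 to 6.59, edgeR adjusted p = 0.00012), with Chow at 549 ± 80.6 CPM. Ephx1, microsomal epoxide hydrolase, was at 387, 399.7, 460.2, 419 and 440.4 CPM against 571, 605, 616, 639 and 674 CPM, 1.47-fold higher (1.31 to 1.66). They were the 2 called of 18 carboxylesterase and epoxide hydrolase genes (0 lower, median 0.25). Of 30 other oxidoreductases, 1 rose, Akr1c19, 1.47-fold (1.27 to 1.70), a call lost without any 1 of SR9009 replicates 1, 3, 4 and 5 or Vehicle replicates 1, 3, 4 and 5 (adjusted p up to 0.0913). DESeq2 called 5 of these 30 higher and limma-voom 2. Of the members that only DESeq2 or another alternative called, Maoa (monoamine oxidase) had a ratio of 1.52 (1.24 to 1.85) and Aldh1a1, an aldehyde dehydrogenase that makes retinoic acid, 1.55 (1.21 to 1.98).

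Later steps of clearance and the receptors themselves gave no edgeR call. Of 27 glucuronosyl and sulfo transferases 0 were called, 6 had an unadjusted p below 0.05 on the higher side and 1 on the lower, the median was 0.18, and DESeq2 called 3 higher (Ugt2b34, Ugt1a1 and Ugdh) and limma-voom 1. Ugt1a1, which conjugates bilirubin, had a ratio of 1.39 (1.15 to 1.68), and Sult1e1, the oestrogen sulfotransferase, averaged 6.92 ± 2.86 CPM in Vehicle livers and 24.7 ± 6.22 CPM in SR9009 livers without overlap. Of 22 drug and bile salt transporters 0 were called, 6 were higher and 2 lower at an unadjusted p below 0.05, and DESeq2 called 2 higher, the efflux pumps Abcc3 (ratio 1.58, 1.21 to 2.08) and Abcc4 (2.19, 1.5002 to 3.19); limma-voom called 1. Of 17 xenobiotic receptors and cofactors 0 were called by edgeR, DESeq2 or limma-voom, and 1 had an unadjusted p below 0.05. It was Ahr, encoding the aryl hydrocarbon receptor, on the higher side with a log2 fold change of 0.50. Nr1i3, encoding CAR, was at 12.9, 4.99, 10.9, 18.5 and 12.7 CPM in Vehicle and 18.8, 11.7, 16.6, 13.4 and 13.7 CPM in SR9009 (ratio 1.24, 0.807 to 1.90), and Nr1i2, encoding PXR, had a ratio of 1.001 (0.893 to 1.12). Of 32 antioxidant genes of the NRF2 pathway outside the transferases, 0 were called, 8 were higher and 1 lower at an unadjusted p below 0.05 and DESeq2 called 1. Nqo1, the usual marker of NRF2 activity, had a ratio of 1.20 (0.975 to 1.48), and Hmox1, haem oxygenase, 0.920 (0.772 to 1.10).

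The plot of list members sets these groups beside lists for the rest of liver metabolism, where 1 listed gene was called outside the drug genes. Chka, choline kinase alpha, which opens phosphatidylcholine synthesis from choline, was at 132, 203, 191, 153 and 124 CPM in Vehicle and 47.5, 76.9, 53.9, 76.8 and 53.6 CPM in SR9009. The groups did not overlap, and it fell by 1.38 (SE 0.21, edgeR adjusted p = 0.00935), a call lost without the low-count filter (adjusted p = 0.052). It was the only call among 29 genes of phosphatidylcholine and methyl metabolism, whose median was 0.05. Pemt, the liver's other route to phosphatidylcholine, had a ratio of 1.13 (0.969 to 1.32). DESeq2 also called lower Cbs (0.765, 0.658 to 0.891), which draws homocysteine into cysteine synthesis.

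**Figure D4:**
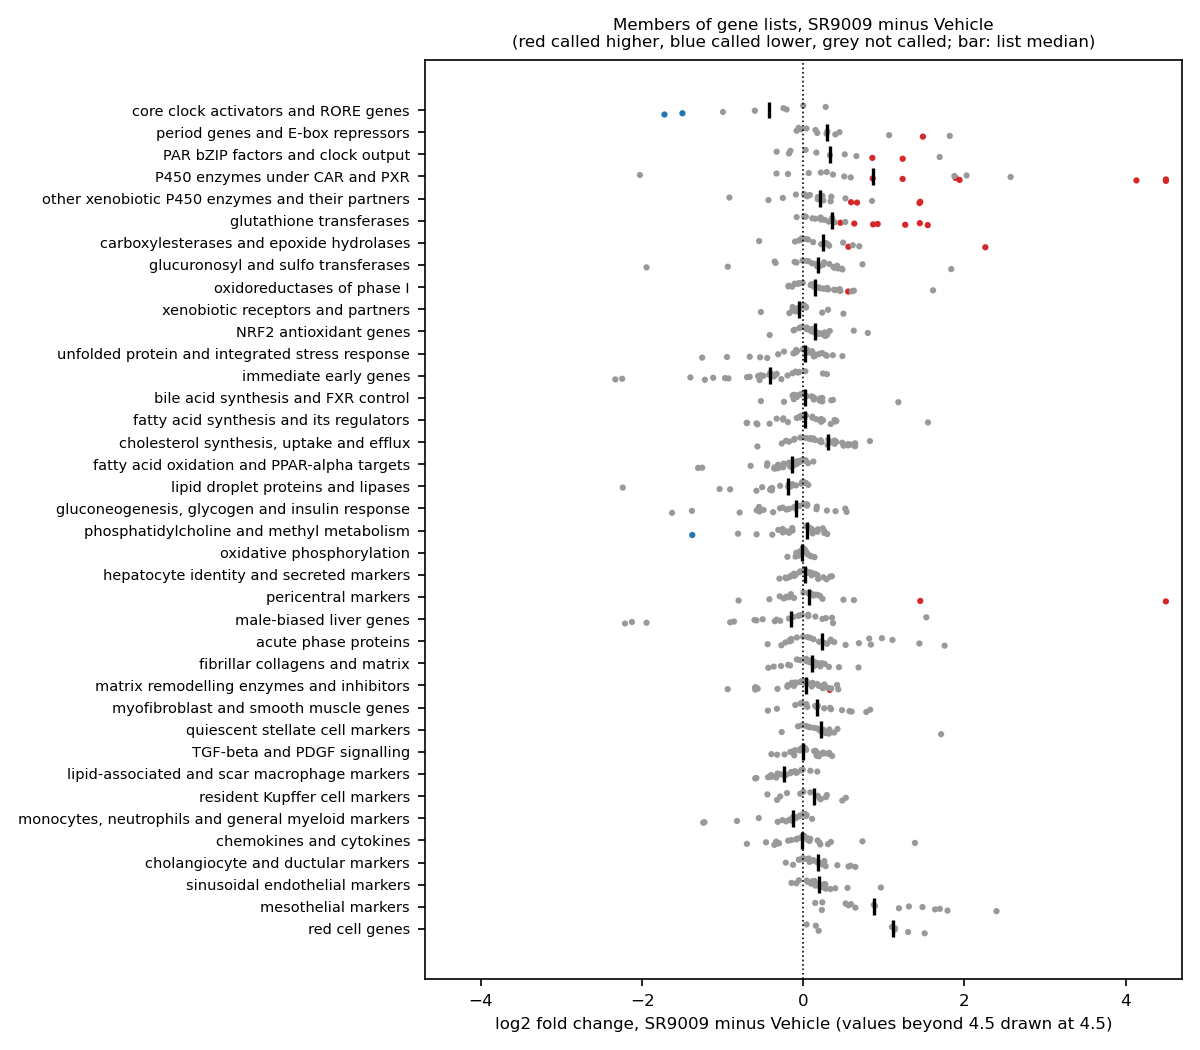
Log2 fold change (x axis, SR9009 minus Vehicle) of every tested member of 38 gene lists (rows); red points were called higher, blue called lower and grey not called, black bars are list medians, and the dotted line is the median of all tested genes, 0.0011. Values beyond the limit given on the axis are drawn at it. Called genes lie in the clock and drug metabolism rows and, 1 or 2 each, in the phosphatidylcholine, pericentral and matrix remodelling rows, while fibrillar matrix, TGF-beta and cytokine rows have none.

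Lipid use genes leaned lower with 0 edgeR calls. Of all 18181 tested genes, 9134 lay above 0. Among them 3.37% of all tested were lower at an unadjusted p below 0.05 and 0.979% were lower without overlap. Of 21 lipid droplet and lipase genes, 18 lay below 0 and 6 had an unadjusted p below 0.05, all lower, with a median of -0.19; DESeq2 and limma-voom each called 1 lower. Plin2, the main coat protein of hepatic lipid droplets, was at 904, 718, 1044, 598 and 645 CPM in Vehicle and 591, 503, 560.2, 459 and 497 CPM in SR9009 (ratio 0.668, 0.541 to 0.825, edgeR adjusted p = 0.16), without overlap. Mgll, Plin5, Cidec, G0s2 and Lpl had ratios of 0.763, 0.752, 0.533, 0.486 and 0.757, also without overlap. Of 40 fatty acid oxidation and PPAR-alpha target genes, 35 lay below 0, 9 had an unadjusted p below 0.05, all lower, and the median was -0.14; DESeq2 called 2 lower and limma-voom 1. Cpt1a, the gatekeeper of mitochondrial oxidation, was at 544, 482, 528, 444 and 447 CPM against 393, 366, 407, 366 and 374 CPM (ratio 0.779, 0.691 to 0.877, adjusted p = 0.11), and no SR9009 library reached the lowest Vehicle library. Pdk4, which spares glucose, had a ratio of 0.404 (0.218 to 0.749).

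Genes of fasting glucose output had low values as well. Over all tested genes, 3.91% were higher and 3.37% lower at an unadjusted p below 0.05, and 0.979% were lower without overlap. G6pc, glucose-6-phosphatase, was at 111, 160.2, 237, 466 and 131 CPM in Vehicle and 70.0, 96.1, 64.1, 78.4 and 49.0 CPM in SR9009 (ratio 0.323, 0.182 to 0.575, edgeR adjusted p = 0.163). Pck1, the gate of gluconeogenesis, was at 1639, 2308, 1164, 1578 and 1315 CPM against 701, 1014, 952, 1062 and 898 CPM (0.578, 0.422 to 0.792, adjusted p = 0.225). Neither overlapped. In the list of 28 gluconeogenesis, glycogen and insulin response genes 0 were called, 3 were higher and 6 lower at an unadjusted p below 0.05, the median was -0.09, and DESeq2 called these 2 lower and limma-voom 0. Of 28 immediate early genes, which respond within minutes to stress and handling, 25 lay below 0 with a median of -0.42 and 0 calls; 8 were lower at an unadjusted p below 0.05, and DESeq2 and limma-voom each called 1. Nr4a1 (30.6 ± 36.1 CPM in Vehicle, 6.07 ± 0.751 CPM in SR9009) and Egr1 (136 ± 88.6 and 62.6 ± 32.0 CPM) varied widely among Vehicle livers. What part handling or feeding before death had in either list was not tested.

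Cholesterol genes leaned the other way, again with 0 edgeR calls. Over all tested genes, 9134 of 18181 lay above 0. At an unadjusted p below 0.05, 3.91% of all tested genes were higher and 3.37% lower. Of 34 genes of synthesis, uptake and efflux 27 lay above 0, 11 were higher and 2 lower at an unadjusted p below 0.05, and the median was 0.31; DESeq2 called 1 higher and 1 lower, and limma-voom 0 higher and 1 lower. Insig2, which holds back the sterol sensor, had a ratio of 0.674 (0.563 to 0.807, edgeR adjusted p = 0.0868). Cyp7a1, the first step of bile acid synthesis and repressed by the partner receptor Nr0b2, averaged 54.2 ± 11.7 CPM in Vehicle livers and 123 ± 53.1 CPM in SR9009 livers (ratio 2.26, 1.45 to 3.54, adjusted p = 0.213); DESeq2 called it higher. Nr0b2 had a ratio of 0.694 (0.443 to 1.09). In fatty acid synthesis 0 of 29 genes were called, 4 were higher and 6 lower at an unadjusted p below 0.05, with Fasn at 1.31 (0.789 to 2.17) and Scd1 at 0.616 (0.429 to 0.886); DESeq2 called 1 higher and 4 lower, and limma-voom 1 lower.

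Oxidative phosphorylation was level. All 32 tested genes had 95% intervals within 1.5-fold of no change, 0 were called by edgeR, DESeq2 or limma-voom, and 0 had an unadjusted p below 0.05. Hepatocyte identity and secreted proteins were nearly as flat: 23 of 28 intervals lay within 1.5-fold and 27 within 2-fold, with a median of 0.03 and 0 calls by any of the 3 tools; 1 gene had an unadjusted p below 0.05. Of 22 pericentral markers 2 were called higher, Cyp2c29 and Cyp1a2; DESeq2 added Aldh1a1 higher and Oat, ornithine aminotransferase, lower (ratio 0.573, 0.439 to 0.748, edgeR adjusted p = 0.113), and limma-voom called 2 higher and 1 lower. Glul and Axin2, set by Wnt signals around the central vein, had ratios of 0.884 (0.706 to 1.11) and 0.861 (0.661 to 1.12). Of 16 periportal markers 0 were called, 5 were lower at an unadjusted p below 0.05, DESeq2 called G6pc and Pck1 and limma-voom 0; Cyp2f2, a typical periportal P450, had a ratio of 1.06 (0.732 to 1.53).

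The study title names liver fibrosis. Levels of the main matrix genes overlapped between treated and vehicle livers. Col1a1, the main chain of scar collagen, was at 182, 199.5, 149, 183 and 149 CPM in Vehicle and 142, 266, 103, 211 and 199 CPM in SR9009. Col3a1 was at 383, 370.0, 301, 332 and 259 CPM against 326, 526, 206, 374 and 452 CPM. For both, SR9009 replicate 3 was the lowest and replicate 2 the highest of all 10 libraries, so treated livers spread wider than controls. Timp1, which blocks matrix proteases, was at 9.67, 7.08, 6.87, 6.52 and 6.96 CPM against 4.84, 8.52, 4.94, 7.75 and 10.4 CPM, and here too the treated range enclosed the controls. Acta2, the actin of activated stellate cells, was at 10.5, 4.68, 5.73, 4.64 and 5.79 CPM against 5.13, 11.3, 10.8, 9.75 and 10.5 CPM. Vehicle replicate 1 lay among the treated livers and SR9009 replicate 1 among the controls. Acta2 was not called, and its log2 fold change ran from 0.51 to 0.86 over the 14 fits without 1 library.

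By list, 0 of the 32 genes for fibrillar collagens and other matrix proteins were called by edgeR, DESeq2 or limma-voom, 0 were higher and 1 lower at an unadjusted p below 0.05 (Col5a3, ratio 0.740, 0.612 to 0.895), and 25 lay above 0 with a median of 0.10. Intervals lay within 2-fold for 30 of them and within 1.5-fold for 16. Of 37 remodelling enzymes and inhibitors 1 rose, Plod1, a lysyl hydroxylase that prepares collagen for crosslinking, from 59.3, 56.6, 59.2, 61.5 and 59.0 CPM to 78.4, 74.99, 68.1, 74.6 and 74.98 CPM (1.26-fold, 1.16 to 1.36, edgeR adjusted p = 0.0224). The groups did not overlap, and Chow was at 74.0 ± 3.30 CPM. Plod1 lost its call without Vehicle replicate 1, 3 or 5 or SR9009 replicate 1, 4 or 5 (adjusted p up to 0.0716). P4ha2, a prolyl hydroxylase of collagen, had a ratio of 1.35 (1.11 to 1.65) and the aggrecanase gene Adamts4 0.522 (0.338 to 0.806), both without overlap and not called. Lox, the crosslinking oxidase, had a ratio of 0.973 (0.727 to 1.30).

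Markers of the cells that make matrix were not called. Of 20 myofibroblast and smooth muscle genes 0 were called by the 3 tools, 2 were higher at an unadjusted p below 0.05 (Acta2 and the myosin light chain Myl9, ratio 1.72, 1.22 to 2.43), and 15 lay above 0. Of 18 quiescent stellate cell markers 0 were called by any tool and 3 were higher at an unadjusted p below 0.05, with Lrat, the retinol-storing enzyme, at a ratio of 1.04 (0.737 to 1.48). Of 30 TGF-beta and PDGF genes 0 were called by any tool and 0 had an unadjusted p below 0.05, the ligand Tgfb1 being at 0.983 (0.791 to 1.22) and the receptor Pdgfrb at 0.975 (0.665 to 1.43). Markers of other cell types had these values: all 16 mesothelial markers lay above 0 with a median of 0.88, 8 of them higher at an unadjusted p below 0.05 and 0 called by any tool. Their summed level was 239 to 354 CPM in Vehicle and 296 to 535 CPM in SR9009, and Msln, Upk3b and Wt1, which define the liver's outer lining, were at 7.79 ± 5.92 against 21.7 ± 12.2, 6.93 ± 4.96 against 17.2 ± 11.2 and 5.68 ± 1.64 against 6.69 ± 4.11 CPM. All 8 red cell genes lay above 0 (median 1.12, 1 at an unadjusted p below 0.05, 0 called by any tool), with sums of 306 to 466 CPM against 344 to 1096 CPM. No tested member of either list was at 0 in any library, and their part in the matrix values was not tested.

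**Figure D5:**
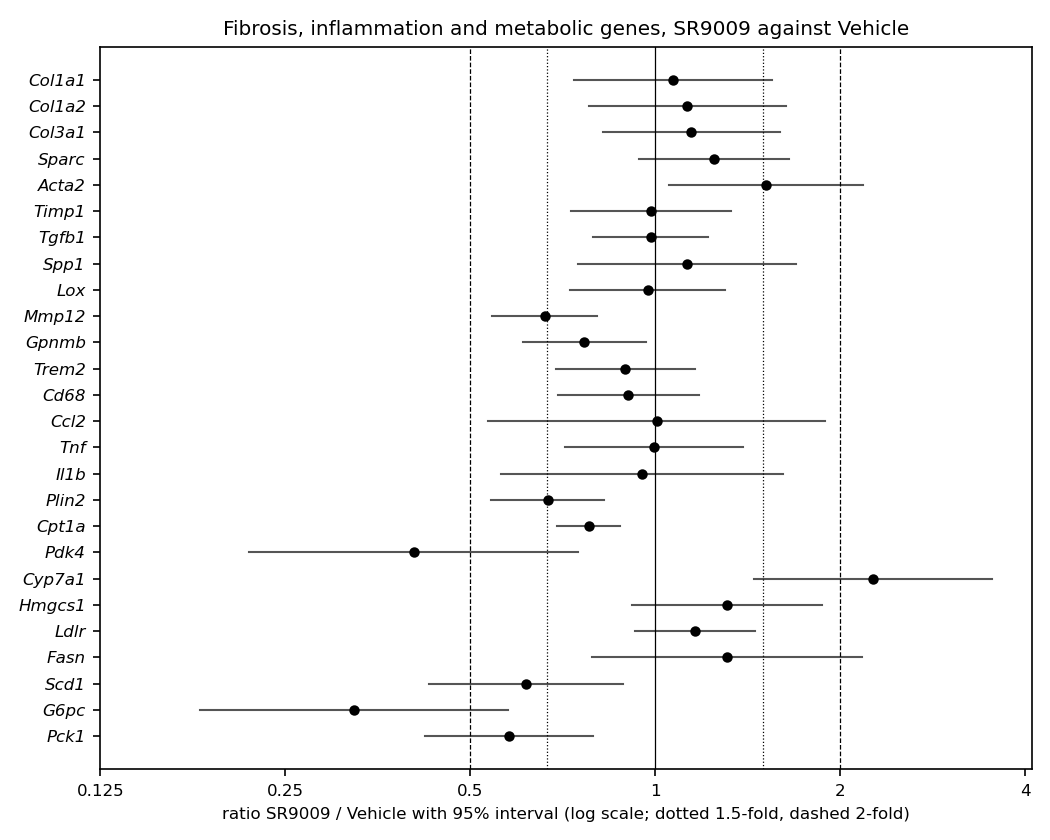
Ratio of SR9009 to Vehicle (x axis, log scale) with its 95% interval for 26 fibrosis, inflammation and metabolic genes, none of them called by edgeR; dotted lines mark 1.5-fold and dashed lines 2-fold. Intervals of Col1a1, Col3a1, Timp1 and Tgfb1 include 1 and lie within 2-fold. Those of Mmp12, Plin2, Cpt1a, G6pc and Pck1 lie below 1, and those of Acta2 and Cyp7a1 lie above 1.

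Macrophage genes of the scar lay mostly below 0 without an edgeR call. Of 23 markers of lipid-associated and scar macrophages, cells that take up lipid in steatohepatitis, 0 were called by edgeR, 21 lay below 0, 7 had an unadjusted p below 0.05, all lower, and the median was -0.24. DESeq2 and limma-voom each called 2 lower; those of DESeq2 were Mmp12 and Plin2, and Plin2 is also a hepatocyte gene. Mmp12, macrophage elastase, was at 306, 292, 373, 241 and 295 CPM in Vehicle and 222, 228, 169, 207 and 170.4 CPM in SR9009 (ratio 0.661, 0.543 to 0.805, edgeR adjusted p = 0.108) without overlap. Gpnmb was at 605, 697, 769, 456 and 476 CPM against 435, 499, 346, 607 and 417 CPM (0.767, 0.608 to 0.967) and overlapped. Trem2 had a ratio of 0.895 (0.689 to 1.16) and Cd9 0.984 (0.828 to 1.17). All 23 intervals lay within 2-fold and 8 within 1.5-fold, against 76.9% and 56.6% of all tested genes. Over all tested genes, 9134 of 18181 lay above 0 and 3.37% were lower at an unadjusted p below 0.05.

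Other immune genes gave no calls, but many of their intervals were wide: 12 of 22 myeloid and 8 of 29 chemokine and cytokine intervals lay within 1.5-fold of no change. Of 22 monocyte, neutrophil and general myeloid markers 0 were called by any tool and 0 had an unadjusted p below 0.05, with the monocyte receptor Ccr2 at a ratio of 1.02 (0.776 to 1.35) and the macrophage marker Adgre1 at 1.0006 (0.736 to 1.36). Of 29 chemokines and cytokines 0 were called by any tool and 1 was higher and 1 lower at an unadjusted p below 0.05. Tnf had a ratio of 0.996 (0.713 to 1.39), Ccl2 1.01 (0.535 to 1.89) and Il1b 0.952 (0.561 to 1.62). Of 29 inflammasome and toll-like receptor genes 0 were called by any tool and 1 was higher at an unadjusted p below 0.05; Nlrp3, which REV-ERB alpha is known to repress in macrophages, was at 0.859 (0.617 to 1.20). Of 32 cell cycle genes 0 were called by any tool and 1 was lower at an unadjusted p below 0.05. The proliferation marker Mki67 averaged 22.3 ± 4.80 CPM in Vehicle livers and 21.8 ± 6.64 CPM in SR9009 livers.

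Outside the lists 16 genes were called. Of those with a symbol, 4 rose, apart from the predicted gene Gm3776, described with Gsta1 above. The transcript 4931406C07Rik was at 131, 137, 159.7, 186 and 178 CPM in Vehicle and 280.1, 238.5, 273, 266 and 291 CPM in SR9009, with Chow at 293 ± 28.4 CPM (1.71-fold higher, 1.46 to 1.99, edgeR adjusted p = 0.00298). Rab3d, a small GTPase of secretory vesicles, rose 1.55-fold (1.33 to 1.79), Slc13a3, a dicarboxylate carrier of the cell membrane, 1.54-fold (1.30 to 1.82), and Dhrs7, a short-chain dehydrogenase, 1.37-fold (1.20 to 1.56). Slc13a3 kept its call only without Vehicle replicate 2 or 4 or Chow replicate 1 or 4, and Dhrs7 only without Vehicle replicate 1 or 2.

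The named genes that fell outside the lists numbered 10. Arsg, a lysosomal sulfatase whose promoter stretch with a RORE core is given above, was at 32.9, 42.8, 35.8, 37.8 and 39.4 CPM in Vehicle and 24.3, 28.6, 27.3, 27.2 and 27.4 CPM in SR9009, a tight fall to 0.714 of Vehicle (0.642 to 0.796, edgeR adjusted p = 0.00691). Slc25a22, the mitochondrial glutamate carrier, whose window holds the same core, was at 215, 194, 213, 213 and 176 CPM against 148, 138, 137, 129.8 and 121 CPM (0.666, 0.567 to 0.783, adjusted p = 0.0373). The ubiquitin ligase Rnf144a ranged over 8.58 to 14.8 CPM in Vehicle and over 4.44 to 7.25 CPM in SR9009 (0.482, 0.370 to 0.629), and Ranbp10 at 95.6 to 124 against 72.6 to 83.9 CPM (0.721, 0.639 to 0.813). Gpc1, a cell-surface heparan sulfate proteoglycan, had a ratio of 0.609 (0.4996 to 0.741), the extracellular protein gene Hmcn2 0.533 (0.415 to 0.686), the ARF-like GTPase gene Arl4a 0.5264 (0.407 to 0.680), the nuclear receptor coactivator Pnrc1 0.605 (0.491 to 0.746) and the hydroxylysine kinase Hykk 0.736 (0.648 to 0.836). Prph, an intermediate filament gene of neurons, fell from 0.798 to 1.72 CPM over the Vehicle libraries to 0.170 to 0.450 CPM over the SR9009 libraries.

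Of these 10 falls, that of Arsg held without any 1 library. The others lost their call in 6 (Rnf144a, Ranbp10), 9 (Gpc1, Hmcn2), 10 (Slc25a22, Arl4a), 11 (Prph, Pnrc1) or 12 (Hykk) of the 14 such fits. All 9 lost it without SR9009 replicate 1, 4 or 5, and without SR9009 replicate 3 all but Hykk did. Just outside the threshold stood Slc16a12, a creatine and monocarboxylate carrier (ratio 1.43, 1.23 to 1.67, edgeR adjusted p = 0.0558), Crot, a peroxisomal acyl transferase (0.701, 0.601 to 0.818, adjusted p = 0.0639), and the tight junction gene Cldn1 (0.770, 0.686 to 0.863, adjusted p = 0.0664). In all, 16 genes had an adjusted p between 0.05 and 0.10.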

How the data were processed

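Bulk liver RNA was sequenced on a NovaSeq X Plus, per the labels' protocols. The authors deposited raw read counts per Ensembl gene with 1 column for each library. The submitters' processing notes name STAR 2.7.11b and the GRCm39 genome. No counting tool or strand setting is given in the sources used here, so overlapping, antisense and closely related genes are uncertain. Chow replicate 5 was not analysed here. Symbols, used as names only, matched 51880 identifiers (90.8%).

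Counts were fitted with edgeR 4.0.16 in R 4.3.3 (filterByExpr with a minimum count of 10 and minimum total of 15, TMM, robust quasi-likelihood, all 14 libraries in 1 model, contrast SR9009 minus Vehicle, two-sided). Intervals and SE come from the quasi-likelihood F. The pipeline was tested on simulated data. Alternatives were DESeq2 1.42.0, limma-voom (limma 3.58.1), other scaling, filters and terms, and leaving out each library. Libraries of a group differed far beyond sampling noise (chi-square per gene at least 14.2). The labels do not say whether each library is a separate mouse, so p-values measure only the spread between these libraries, which may be technical. Counting precision covers counting error only.

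Members, gene lists and tests were chosen with earlier results of these data known. Named are all called genes with a symbol that are not predicted genes, fixed key members of 53 lists, up to 4 further members with the smallest p, and genes with adjusted p from 0.05 to 0.10. Some members of these lists are not reported here.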

Additional observations from a re-analysis of the deposited data

Results flagged for a closer look

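Among 62 genes examined in both groups (124 groups of 5 libraries), 6 groups held 1 library far from the other 4; chance alone marks about 1 group in 20. For Acta2, Vehicle replicate 1 was at 10.5 CPM with the other Vehicle libraries at 4.64 to 5.79 CPM, and SR9009 replicate 1 was at 5.13 CPM with the other SR9009 libraries at 9.75 to 11.3 CPM. Timp1 in Vehicle replicate 1 was at 9.67 CPM, with the others at 6.52 to 7.08 CPM. Ciart in Vehicle replicate 3 was at 0.352 CPM, with the others at 0.931 to 1.13 CPM. Hykk in SR9009 replicate 3 was at 67.5 CPM, with the others at 53.03 to 56.7 CPM. Dhrs7 in SR9009 replicate 1 was at 40.5 CPM, with the others at 44.2 to 45.1 CPM.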

How the results depend on the processing

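Among called genes, no alternative reversed a direction. Of the 44 calls, 18 held in all 14 fits without 1 library, 16 in all 8 other alternatives and 14 in both. Genes called higher numbered 122 with DESeq2, 40 with limma-voom, 17 with a replicate block and 53 with the receptor gene class as a term. Genes called lower numbered 84, 26, 8 and 25 in the same order. The 26 of limma-voom held 11 of the 14 falls. DESeq2 size factors gave 31 and 12, no low-count filter 27 and 11, a stricter filter 31 and 17, and the diet-fed libraries alone 23 and 20. Leaving out 1 library gave 16 to 37 higher and 2 to 19 lower. Library numbers did not pair samples: deviations of same-numbered libraries correlated from -0.362 to 0.196, so the block is only a number. The cause of these shifts was not tested. Without a filter 12 of the 44 calls were lost: Arntl, Npas2, Tef, Chka, Cyp1a2, Cyp2c50, Gsta1, Gm3776, Plod1, Arl4a, Pnrc1 and a gene without a symbol. With the diet-fed libraries alone 12 were lost: Arntl, Cyp1a2, Cyp2c50, Cyb5a, Gsta1, Gsta4, Gstm4, Gm3776, Plod1, Slc13a3, Dhrs7 and the same unnamed gene. Depth limits Cyp2b10 in Vehicle, where 3 counts correspond to 0.0659 to 0.0810 CPM of the raw library total.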
